A study of Mus musculus with 12 samples.

Results

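Gene expression was compared between cells of the superficial zone (SFZ) and of the deep zone (DZ) of normal mouse joint cartilage. The comparison was made of the 3 R3-Cntl SFZ and 3 R3-Cntl DZ libraries, chosen by their labels, which are 6 of the 12 RNA-seq libraries of a study of the transcription factor Runx3. Of the 17536 genes with a value, 11336 had at least 1 FPKM (fragments scaled by gene length and library size) in at least 3 of the 6 libraries and were tested. The other 6 libraries are labelled R3-cKO and are used here only as a second look at the same zone difference.

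All mice were C57BL/6 by the labels (C57BL/6J in the methods) and 5 days old. R3-Cntl mice were Runx3 fl/fl, so that the controls carry the floxed allele too, and R3-cKO mice were Col2a1-Cre; Runx3 fl/fl, in which the Cre is driven by the promoter of a collagen gene of chondrocytes. SFZ cells were released first, by trypsin and a first collagenase step, from the femur and tibia ends after ligaments and tendons had been cut away, and DZ cells were released by a longer second collagenase step from what remained. Zone therefore cannot be told apart from the order and length of digestion. The methods describe such cells as plated on fibronectin-coated dishes as a monolayer, and the time in culture before RNA was collected is not given in the sources used here. The RNA is that of a mixed cell sample, so fewer cells of a type and less RNA per cell cannot be told apart.

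Articular cartilage is layered. Its surface cells are flat, lie among collagen fibrils that run parallel to the surface and secrete lubricin, the product of Prg4, which lubricates the joint. Deeper chondrocytes are round, sit in a matrix of type II collagen and aggrecan, which holds water and resists compression, and in a newborn epiphysis they border the cells that enlarge and are later replaced by bone. Both kinds of cell share a chondrocyte identity set by Sox9, which keeps the type II collagen and aggrecan genes active.

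All 6 libraries had the defining genes of cartilage at high levels. Col2a1, which encodes type II collagen, ranged from 3241 to 22791 FPKM, Acan from 127 to 2046 FPKM and Sox9 from 40.1 to 109 FPKM. The libraries did not separate evenly by zone. SFZ library 1 correlated across genes with its own zone at 0.961 and 0.951 and with the DZ libraries at 0.947 to 0.963, and on the first principal component, which held 66.7% of the variance, it lay at 7.66 between SFZ libraries 2 and 3 at 47.3 and 37.2 and the DZ libraries at -53.7 to -18.8. Values below are given in the order of libraries 1, 2 and 3. Depth is unknown, because the values are not counts. The study names 3 individual littermate mice per genotype, and the labels do not say which library came from which mouse.

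Zone differences were counted in 2 ways. With limma at an adjusted p under 0.05, 123 genes (1.09% of those tested) were higher in SFZ and 17 genes (0.15%) were higher in DZ. In all 140 of these genes each library of one zone exceeded each library of the other. Adjusted p-values ran only from 0.0210 to 0.0499, and 124 of the 140 lay above 0.04, so that the number of calls moves strongly with the processing. It was 400 and 212 without SFZ library 1, where all 140 were called again, 0 and 0 without SFZ library 2, DZ library 1 or DZ library 2, 14 and 0 without SFZ library 3, and 4 and 0 without DZ library 3. The sign of all 140 genes was the same in each of these fits. This was fixed in advance, because leaving out a library cannot reverse zones that do not overlap.

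The second count does not use a test. Genes are called separated below where the lowest library of one zone exceeded the highest of the other and the log2 difference in mean, on the log2(FPKM + 1) scale used throughout, was at least 1. There were 476 such genes (4.2%) with SFZ higher and 130 (1.15%) with DZ higher, and counts of members called or separated are to be read against these shares and those of the test. SFZ library 2 was the highest SFZ library in 376 of the 476 genes, SFZ library 1 the lowest in 338, and DZ library 1 the lowest DZ library in 412. SFZ library 2 also had the highest summed muscle, adipocyte and osteoblast markers, given below, and their part in these genes was not tested. The median difference of all genes tested was 0.17 in favour of SFZ. It was -0.05 after quantile normalization and 0.01 with size factors, so group medians below are to be read against 0.17. A higher mean in SFZ was found in 72.0% of all genes tested, in 43.98% after quantile normalization and in 51.2% with size factors, and counts of higher means in a list are to be read against these shares. Genes with an unadjusted p under 0.05 numbered 2542 higher in SFZ and 560 higher in DZ, but 1107 and 1649 after quantile normalization and 1421 and 1230 with size factors, and the calls were 4 and 0 and 14 and 4. More genes higher in SFZ than in DZ is therefore not a property that held under each scaling. An exact permutation test of a single gene in 3 against 3 libraries cannot give a p below 0.10.

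**Figure D1:**
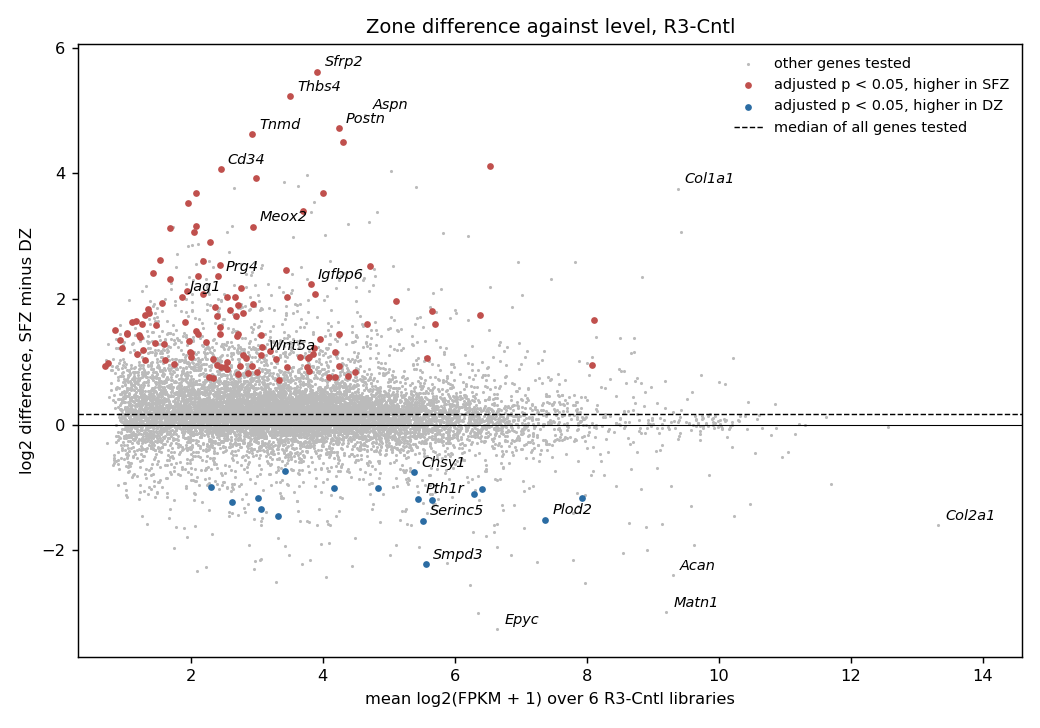
Difference between zones for each of the 11336 genes tested in R3-Cntl (y axis, SFZ minus DZ on the log2(FPKM + 1) scale) against its mean level over the 6 libraries (x axis, log2(FPKM + 1)). Red and blue points passed the limma test at an adjusted p under 0.05 (123 higher in SFZ, 17 higher in DZ), grey points did not, and the dashed line is the median of 0.17. Large differences among abundant genes, such as those of Col1a1 and Matn1, stayed grey because the libraries of a zone differed from each other.

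The 10 largest differences among genes that passed the test towards SFZ were those of Sfrp2, Thbs4, Postn, Tnmd, Nov, S100a4, Cd34, Thy1, Myoc and Fbln2, with log2 differences of 5.62 to 3.68. Thbs4, which encodes thrombospondin 4, a matrix protein of tendon, measured 50.8, 99.6 and 63.0 FPKM in SFZ and 0.25, 0.45 and 2.49 FPKM in DZ (log2 difference 5.23, SE 0.43, adjusted p = 0.0235). Cd34, a surface sialomucin found on blood-vessel and stromal progenitor cells, measured 12.6, 27.9 and 27.9 FPKM in SFZ and 0.06, 0.49 and 0.52 FPKM in DZ (4.07, SE 0.33, adjusted p = 0.0235). Cd34 was under 1 FPKM in each DZ library. Tnmd, the gene of tenomodulin, a membrane protein of tendon cells, measured 46.7, 74.5 and 14.1 FPKM in SFZ and 0.35, 0.27 and 1.14 FPKM in DZ (4.62, SE 0.57). S100a4, a calcium-binding protein of migrating fibroblasts, was the most abundant of the 10, at 188, 506 and 596 FPKM in SFZ and 7.49, 35.4 and 34.1 FPKM in DZ (4.12, SE 0.67). Of the 123 genes higher in SFZ, 37 had a mean under 1 FPKM in DZ, so they entered the test through their SFZ libraries.

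The 10 largest differences towards DZ were smaller, at -2.23 to -1.16, and were those of Smpd3, Serinc5, Plod2, Kcns1, Usp53, Slc35g1, Higd1a, Pth1r, Tgm2 and Tubb2a. Smpd3, which encodes the neutral sphingomyelinase needed for normal cartilage and bone mineralization, measured 26.9, 17.4 and 19.1 FPKM in SFZ and 69.6, 86.0 and 171 FPKM in DZ (-2.23, SE 0.34, adjusted p = 0.048). Plod2, a lysyl hydroxylase that prepares the ends of collagen chains for cross-linking, measured 99.3, 97.5 and 93.3 FPKM in SFZ and 279, 237 and 328 FPKM in DZ (-1.52, SE 0.15, adjusted p = 0.0338). Each of the 17 genes had a mean of over 1 FPKM in SFZ. By the ratio of mean FPKM the 17 DZ genes were 1.72-fold (Chsy1) to 5.16-fold (Smpd3) higher in DZ, whereas 37 of the SFZ genes had a DZ mean under 1 FPKM. Plod2 was 2.91-fold higher in DZ, against 66.9-fold for Thbs4 and 63.9-fold for Cd34 in the other direction. The ratio of Thbs4 rests on DZ library 3, without which it was 203-fold.

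Prg4, the gene of lubricin, is the classical marker of the surface zone. It measured 22.2, 8.38 and 7.13 FPKM in SFZ and 1.39, 1.22 and 1.47 FPKM in DZ (2.36, SE 0.38, adjusted p = 0.0485), a 9.25-fold ratio of means that was 5.70-fold without SFZ library 1. Its level was low in both zones beside the matrix genes, and the SFZ library closest to the DZ libraries over all genes, library 1, had the highest Prg4. On mm9, Prg4 lies on chr1:152296542-152313295, Thbs4 on chr13:93521545-93564773, Cd34 on chr1:196765015-196787486 and Plod2 on chr9:92437061-92503266.

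The promoters of Thbs4 and Cd34 are shown because these had the largest differences among the 4 zone markers Prg4, Thbs4, Cd34 and Plod2. No promoter of Prg4 or Plod2 was found in the RefSeq set used here. The sequences are the 250 bases before the start site from RefSeq (table of build GRCm38.p6), placed by exact match on mm9 at chr13:93564774-93565023, minus strand and chr1:196764765-196765014, plus strand, and are written 5' to 3'. Capitals would mark the Runx letters TGTGGT or TGCGGT on either strand, or the hypoxia response letters ACGTG on either strand, and neither promoter holds one. The motif that the paper recovered for Runx3, TG(T/C)GG(T/C), also allows C as the last base. That form was not searched, and both promoters hold it, as tgcggc in Thbs4 and as gccaca, the complement of TGTGGC, in Cd34.
Thbs4: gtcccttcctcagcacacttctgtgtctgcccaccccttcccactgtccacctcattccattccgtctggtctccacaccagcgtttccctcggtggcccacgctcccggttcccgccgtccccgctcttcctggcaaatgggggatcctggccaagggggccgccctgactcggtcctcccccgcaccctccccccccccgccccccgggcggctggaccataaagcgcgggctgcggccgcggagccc
Cd34: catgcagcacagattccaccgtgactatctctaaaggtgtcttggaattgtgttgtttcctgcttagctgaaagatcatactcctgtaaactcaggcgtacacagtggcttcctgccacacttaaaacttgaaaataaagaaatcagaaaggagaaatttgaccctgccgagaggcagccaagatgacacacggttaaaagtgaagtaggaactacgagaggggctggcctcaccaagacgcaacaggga
Over the 32851 promoters of the table, 18.6% held the Runx letters. Of the 123 genes higher in SFZ, 89 matched the table by symbol, with 123 promoters, of which 21 (17.1%) held them. Of the 17 genes higher in DZ, 12 matched, with 16 promoters, of which 4 (25%) held them. These shares are for the forms ending in T only. A match of letters is not a site, and its absence here concerns only these forms and these 250 bases.

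The genes of the hyaline cartilage matrix were lower in SFZ cells. All 7 collagen genes of the cartilage fibril had lower means in SFZ, with a median of -1.64, and 6 of them were separated. Col2a1 measured 9229, 3241 and 6728 FPKM in SFZ and 22791, 14219 and 17525 FPKM in DZ (-1.61, SE 0.45). Col9a1, a chain of the type IX collagen that coats these fibrils, measured 906, 190 and 379 FPKM in SFZ and 1887, 1219 and 1555 FPKM in DZ (-1.92, SE 0.54), and Col11a1, of the fibril core, differed by -1.26 (SE 0.28). None of the 7 passed the test with all 6 libraries, and 6 passed it without SFZ library 1, where the median was -2.09, and none without any 1 of the other 5. In all 7 genes SFZ library 1 had the highest of the SFZ values.

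The aggregate of aggrecan with hyaluronan showed the same order. Acan measured 670, 127 and 243 FPKM in SFZ and 2046, 1112 and 1339 FPKM in DZ (-2.40, SE 0.59). Hapln1, the link protein that locks aggrecan onto hyaluronan, measured 525, 134 and 174 FPKM in SFZ and 821, 664 and 590 FPKM in DZ (-1.57, SE 0.49). Has2, the enzyme that makes hyaluronan, differed by -1.04 (SE 0.24). The groups did not overlap in any of these genes. The list of this network also holds genes higher in SFZ: Prg4, Vcan, the gene of versican, the large proteoglycan of loose connective tissue (1.87, SE 0.41), and Cd44, a hyaluronan receptor (1.98, SE 0.62, and 1.30 without DZ library 1), which were separated as well. Of the 8 genes tested, 5 were separated with DZ higher and 3 with SFZ higher, and Prg4 alone passed the test.

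Other proteins that mark hyaline cartilage followed Acan. Among 13 matrilins and related proteins tested, 7 were separated with DZ higher and 1 with SFZ higher, and the median was -1.46. Matn1, the gene of matrilin 1, which is rich in growth cartilage, measured 436, 83.6 and 249 FPKM in SFZ and 2134, 863 and 2500 FPKM in DZ (-2.99, SE 0.66). Ucma, made by early chondrocytes of the growth cartilage, differed by -1.998 (SE 0.33) and Comp, a pentameric protein that binds collagen, by -1.29 (SE 0.39). Cilp2, which belongs to the cartilage intermediate layer proteins, was the member higher in SFZ, at 7.28, 15.1 and 6.87 FPKM against 0.69, 1.08 and 2.42 FPKM (2.15, SE 0.36). None of the 13 passed the test with all libraries, and without SFZ library 1 the calls were 1 higher in SFZ and 7 higher in DZ, and there were none without any 1 of the other 5.

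The small leucine-rich proteoglycans, which control collagen fibril width, divided between the zones. Aspn, the gene of asporin, measured 119, 318 and 68.3 FPKM in SFZ and 0.32, 2.46 and 19.3 FPKM in DZ (4.93, SE 1.03). Epyc, the gene of epiphycan, a proteoglycan of epiphyseal cartilage, measured 105, 9.34 and 29.99 FPKM in SFZ and 493, 288 and 206 FPKM in DZ (-3.25, SE 0.81). These were the largest differences of the list in each direction. Dcn, the gene of decorin, was higher in DZ (-1.41, SE 0.33) and Podn, of podocan, was higher in SFZ (1.78, SE 0.53). Bgn and Fmod, of biglycan and fibromodulin, were abundant in both zones with differences of 0.68 (SE 0.22) and 0.41 (SE 0.29). Fmod was 0.18 without DZ library 2 and 0.69 without DZ library 3. None of the 11 tested genes passed the test.

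The enzymes that build and sulfate chondroitin chains on aggrecan also leaned towards DZ. Of 24 tested genes, 6 were separated with DZ higher and 1 with SFZ higher. Chsy1, a chondroitin synthase, passed the test at 33.4, 29.7 and 30.1 FPKM in SFZ and 54.7, 52.6 and 52.6 FPKM in DZ (-0.76, SE 0.10). Its zones differed by less than in the genes below, and its libraries agreed closely. Chst11, which adds sulfate to position C4 of the chain sugar, measured 61.0, 13.9 and 21.5 FPKM in SFZ and 159, 103 and 122 FPKM in DZ (-2.21, SE 0.50). Papss2, which makes the sulfate donor, differed by -2.16 (SE 0.60), Slc26a2, the sulfate transporter, by -1.60 (SE 0.31) and Xylt1, which starts each chain, by -1.41 (SE 0.30). Sulfate uptake, donor synthesis, chain start and transfer were therefore each represented among the separated genes, although the median of the whole list was only -0.22.

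**Figure D2:**
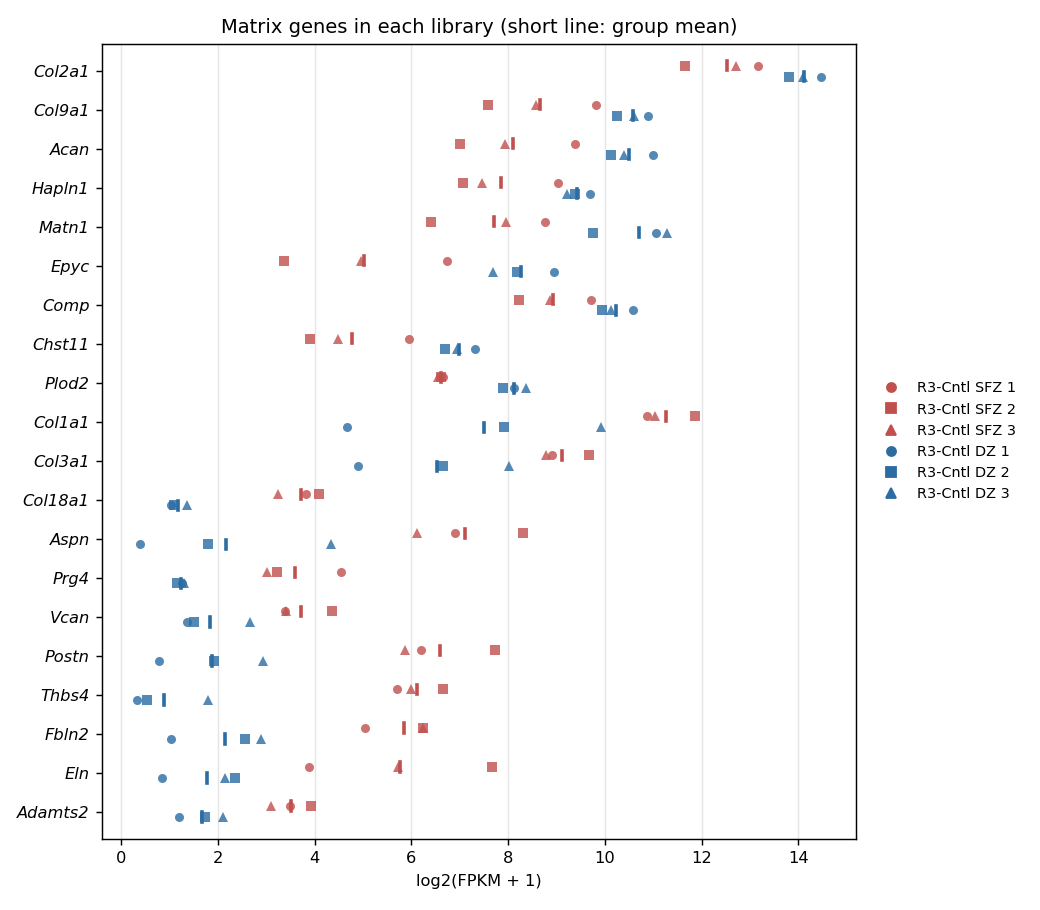
Level of 20 matrix genes in each R3-Cntl library (x axis, log2(FPKM + 1)), with 1 symbol shape per library number, SFZ in red and DZ in blue, and a short line at each group mean of the log2 values. Genes from Col2a1 to Plod2 lie further right in DZ and genes from Col1a1 to Adamts2 in SFZ, with SFZ library 1 the closest to DZ in the cartilage genes and DZ library 3 the closest to SFZ in Col1a1, Col3a1 and Aspn.

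The collagens of fibrous tissue were higher in SFZ. All 15 tested members of this list had higher means in SFZ (72.0% of all genes did), with a median of 1.87 that was 0.92 without DZ library 1, and 8 were separated. Col1a1, the main chain of type I collagen of bone, tendon and skin, measured 1859, 3706 and 2112 FPKM in SFZ and 24.4, 242 and 961 FPKM in DZ (3.75, SE 1.21, and 2.34 without DZ library 1). Col3a1, of type III collagen, measured 478, 815 and 443 FPKM in SFZ and 29.01, 99.6 and 259 FPKM in DZ (2.59, SE 0.74), and Col14a1, a collagen on the surface of fibrils, differed by 3.06 (SE 0.60). The DZ libraries spread widely in these genes, library 1 low and library 3 high, and no member passed the test. Type VI collagen, which surrounds each chondrocyte, differed less, with Col6a1 at 0.44 (SE 0.15), Col6a2 at 0.58 (SE 0.18) and Col6a3 at 0.77 (SE 0.23), each higher in SFZ without overlap and none past the test.

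Genes of basement membranes and of the matrix next to the cell followed. Col18a1, whose product carries endostatin, measured 13.1, 16.1 and 8.48 FPKM in SFZ and 1.05, 1.15 and 1.59 FPKM in DZ (2.55, SE 0.23, adjusted p = 0.0309). Col4a1, of type IV collagen, differed by 2.33 (SE 0.42) and Lamb1, a laminin chain, by 2.54 (SE 0.71), and of the 12 tested genes 6 were separated, all with SFZ higher. The other 6 were not, and 4 of these had lower means in SFZ, down to -0.54. Among them, Hspg2, of perlecan, measured 129, 121 and 144 FPKM in SFZ and 139, 148 and 156 FPKM in DZ (-0.17, SE 0.12), with overlapping groups.

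Elastic fibre genes were often separated with SFZ higher. Of the 18 tested genes of elastic fibres and lysyl oxidases, 10 were separated with SFZ higher (4.2% of all genes were) and 1 with DZ higher. Higher means in SFZ were found in 13 and lower means in 5, which is like the 72.0% higher among all genes. The median was 1.56, and Fbln2 and Mfap5 passed the test. Mfap5 was under 1 FPKM in each DZ library, so it entered the test through its SFZ libraries. Fbln2, of fibulin 2, measured 31.8, 75.0 and 74.5 FPKM in SFZ and 1.05, 4.88 and 6.38 FPKM in DZ (3.68, SE 0.55). Eln, of elastin itself, measured 13.8, 201 and 51.8 FPKM in SFZ and 0.80, 4.12 and 3.41 FPKM in DZ (3.97, SE 0.92). The microfibril genes Mfap5 at 3.06 (SE 0.48), Fbn2 at 2.37 (SE 0.86, and 1.30 without DZ library 1) and Fbn1 at 1.40 (SE 0.36) had higher means in SFZ as well. The lysyl oxidases, which cross-link collagen and elastin, divided: Loxl1, which acts on elastin, was higher in SFZ (1.66, SE 0.45), and Loxl2 was higher in DZ, at 65.0, 46.6 and 91.1 FPKM against 205, 182 and 130 FPKM (-1.37, SE 0.28).

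A similar division ran through the enzymes that process collagen. Adamts2, which removes the amino end of procollagens I to III, passed the test towards SFZ, at 10.2, 14.2 and 7.54 FPKM against 1.30, 2.31 and 3.34 FPKM (1.82, SE 0.29). Pcolce, which speeds removal of the other end, was also higher in SFZ (1.37, SE 0.48, and 0.81 without DZ library 1). Plod2 passed the test towards DZ, and the prolyl hydroxylase genes P4ha1 and P4ha2, of the enzyme that stabilizes the collagen helix, differed by -0.53 (SE 0.12) and -0.88 (SE 0.22) without overlap. Over the 19 tested genes the median was -0.06, and it was -0.21 without SFZ library 1 and -0.18 without DZ library 1.

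Matricellular proteins, which signal to cells rather than bear load, gave 3 of the largest SFZ differences. Postn, of periostin, measured 72.8, 213 and 57.3 FPKM in SFZ and 0.72, 2.79 and 6.69 FPKM in DZ (4.72, SE 0.66). Nov, also called Ccn3, measured 79.4, 182 and 56.6 FPKM in SFZ and 0.95, 4.76 and 5.44 FPKM in DZ (4.51, SE 0.58). Together with Thbs4 these passed the test, and 6 of 17 tested members were separated, all with SFZ higher. Ctgf, the CCN member that is abundant in growth cartilage, went the other way, at 368, 358 and 639 FPKM in SFZ and 1150, 760 and 752 FPKM in DZ (-0.99, SE 0.29).

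Of the matrix proteases and their inhibitors, 17 of 19 tested had a higher mean in SFZ, against 72.0% of all genes, with a median of 0.65 (1.02 without DZ library 3) and 4 genes separated. Adamts5, the main aggrecan-cleaving protease of mouse cartilage, measured 8.13, 23.1 and 16.3 FPKM in SFZ and 0.16, 2.10 and 2.45 FPKM in DZ (2.75, SE 0.51). Mmp14, a membrane-bound collagenase, differed by 1.50 (SE 0.46) and its partner inhibitor Timp2 by 1.38 (SE 0.39). None passed the test.

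Genes of hypertrophy, the enlargement that precedes bone formation, did not move together. Col10a1, the collagen of hypertrophic chondrocytes, measured 58.7, 38.5 and 74.5 FPKM in SFZ and 793, 241 and 68.8 FPKM in DZ (-2.08, SE 0.82, and -1.21 without DZ library 1). DZ library 3 lay inside the SFZ range. Pth1r, the receptor for the peptide PTHrP that delays hypertrophy, passed the test at 30.2, 28.1 and 25.7 FPKM in SFZ and 77.8, 57.3 and 60.6 FPKM in DZ (-1.18, SE 0.15). Bglap, of osteocalcin, was higher in SFZ at 25.8, 12.7 and 8.33 FPKM against 1.62, 3.65 and 3.06 FPKM (2.04, SE 0.41). Its reads may be shared with the near-identical Bglap2, which differed by 2.12 (SE 0.35). Over the 16 tested genes the median was -0.22 (-0.098 without DZ library 3), with 1 gene separated each way.

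Wnt proteins bind Frizzled receptors and, on one branch, stabilize beta-catenin. In this list 5 of 35 tested genes passed the test towards SFZ, against 1.09% of all genes: Sfrp2, Rspo2, Fzd1, Ror1 and Wnt5a. Rspo2 was under 1 FPKM in each DZ library, so it entered the test through its SFZ libraries. The secreted modulators differed most. Sfrp2, which binds Wnt proteins outside the cell, measured 76.3, 321 and 46.7 FPKM in SFZ and 0.43, 0.66 and 3.25 FPKM in DZ (5.62, SE 0.75), and Rspo2, which raises the number of Wnt receptors, measured 5.97, 26.7 and 11.03 FPKM in SFZ and 0.02, 0.16 and 0.29 FPKM in DZ (3.52, SE 0.47).

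The ligand and receptors of the branch that does not use beta-catenin differed less, and the receptors divided between the zones. Wnt5a measured 11.7, 12.5 and 9.96 FPKM in SFZ and 3.77, 4.88 and 5.71 FPKM in DZ (1.11, SE 0.16), and Ror1, its co-receptor, differed by 1.14 (SE 0.18). Ror2, the other member of that receptor pair, had the opposite sign, at 9.38, 6.65 and 8.34 FPKM in SFZ and 17.2, 12.2 and 12.9 FPKM in DZ (-0.72, SE 0.18). Higher in DZ by the mean were also the Wnt antagonists Frzb (-1.10, SE 0.46) and Sfrp5 (-2.50, SE 1.29), with overlapping groups. Sfrp5 was -1.56 without DZ library 1 and -3.87 without SFZ library 1. Lef1 and Axin2, read-outs of the beta-catenin branch, measured -0.31 (SE 0.38) and 0.41 (SE 0.29), also with overlap. Without SFZ library 1 they were -0.69 and 0.21, and without DZ library 3 they were -0.09 and 0.69.

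Notch signalling passes between touching cells, from ligands such as Jag1 to targets such as Hes1. Jag1 measured 5.66, 8.84 and 5.24 FPKM in SFZ and 0.67, 0.96 and 0.82 FPKM in DZ (2.03, SE 0.20, adjusted p = 0.0338). Hes1 measured 9.37, 14.3 and 15.4 FPKM in SFZ and 4.2, 4.59 and 3.58 FPKM in DZ (1.43, SE 0.20). Both passed the test. Jag1 was under 1 FPKM in each DZ library, so it entered the test through its SFZ libraries. The closeness of its DZ values, near the floor of the scale, is therefore not read as a result. All 10 tested genes of the list had higher means in SFZ (72.0% of all genes did), 4 were separated, among them Rbpj, the DNA-binding partner of Notch (1.13, SE 0.28), and the median was 0.59.

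The insulin-like growth factor system was divided by ligand. Igf1 measured 5.05, 25.4 and 7.25 FPKM in SFZ and 0.07, 0.62 and 0.98 FPKM in DZ (2.86, SE 0.55). Igf2, the far more abundant fetal ligand, measured 2936, 1855 and 2475 FPKM in SFZ and 4811, 4238 and 4789 FPKM in DZ (-0.95, SE 0.24). The zones did not overlap in either gene. Of the 6 tested binding proteins that hold these ligands, 3 were separated with SFZ higher: Igfbp6 passed the test at 25.2, 33.6 and 30.8 FPKM against 3.45, 6.99 and 6.70 FPKM (2.24, SE 0.25), and Igfbp2 and Igfbp3 differed by 4.04 (SE 0.93) and 3.16 (SE 0.59). The groups overlapped in Igfbp4 (1.07, SE 0.54, and 0.598 without DZ library 1), Igfbp5 (1.16, SE 0.85, and 0.128 without DZ library 1) and Igfbp7 (-0.27, SE 0.36). The median of the 16 tested genes was 0.25, -0.01 after quantile normalization and 0.39 without SFZ library 1.

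Of the FGF receptors, Fgfr3 and Fgfrl1 were separated with DZ higher. Fgfr3, the receptor that restrains chondrocyte growth, measured 78.1, 30.04 and 61.5 FPKM in SFZ and 231, 152 and 152 FPKM in DZ (-1.72, SE 0.36). Fgfrl1, a receptor without a kinase, passed the test at 64.2, 45.2 and 50.4 FPKM in SFZ and 116, 96.5 and 133 FPKM in DZ (-1.10, SE 0.18). Fgfr4 was lower in SFZ without overlap (-0.61, SE 0.17), and Fgfr1 (0.34, SE 0.42) and Fgfr2 (0.55, SE 0.31) had higher means in SFZ with overlapping groups. Without DZ library 1, Fgfr1 was -0.036 and Fgfr2 0.22, and without DZ library 3 both were 0.83. The ligand Fgf7 and the feedback inhibitors Spry1 and Spry2 were higher in SFZ without overlap, by 2.19 (SE 0.52), 2.16 (SE 0.38) and 1.24 (SE 0.34). None of these passed the test, and Fgfrl1 was the only call of the list. Of 15 tested genes, 4 were separated with SFZ higher and 2 with DZ higher, and the median was 0.79 (0.46 without DZ library 1).

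In the hedgehog and PTHrP pathway, Pth1r was the call towards DZ. Ihh, the ligand made by chondrocytes before hypertrophy, was low in both zones at 2.05, 0.66 and 0.59 FPKM in SFZ and 4.96, 1.53 and 1.81 FPKM in DZ (-0.80, SE 0.40, and -0.41 without DZ library 1), with SFZ library 1 inside the DZ range. Gas1, a co-receptor for hedgehog proteins, measured 116, 287 and 128 FPKM in SFZ and 4.22, 21.6 and 63.7 FPKM in DZ (3.05, SE 0.88), and Hhip, which traps the ligand, differed by 1.29 (SE 0.30). Ptch1, receptor and target at once, measured -0.61 (SE 0.30) with overlap.

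BMP and TGF-beta ligands, which drive cartilage formation and matrix synthesis, gave no gene past the test with all 6 libraries, and 5 and 3 genes of their lists, all higher in SFZ, without SFZ library 1, and none without any 1 of the other 5. Bmp4 measured 21.7, 79.4 and 55.5 FPKM in SFZ and 0.42, 8.50 and 13.3 FPKM in DZ (3.02, SE 0.90, and 2.01 without DZ library 1). Among extracellular antagonists, Nbl1 (2.40, SE 0.54), Fstl1 (2.06, SE 0.47) and Fst (1.21, SE 0.24) were separated with SFZ higher. Gdf5, the factor of the joint-forming region, was higher in DZ here, at 2.99, 1.90 and 4.41 FPKM in SFZ and 4.59, 7.69 and 8.58 FPKM in DZ (-0.96, SE 0.29). In the TGF-beta list 19 of 20 tested means were higher in SFZ, against 72.0% of all genes, with Tgfb3 at 1.72 (SE 0.56, and 1.12 without DZ library 1) and the latent-complex genes Ltbp2 at 2.43 (SE 0.81) and Ltbp4 at 1.495 (SE 0.45, and 0.98 without DZ library 1). The medians were 0.28 over 31 BMP genes and 0.54 over 20 TGF-beta genes, or 0.06 and 0.29 after quantile normalization and 0.17 and 0.34 without DZ library 1.

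Of the vascular and immune ligands, Vegfc and Ccl2 were both under 1 FPKM in each DZ library. Vegfc, which acts on lymphatic vessels, passed the test at 2.36, 4.22 and 2.10 FPKM in SFZ and 0.02, 0.27 and 0.43 FPKM in DZ (1.63, SE 0.25). Ccl2, which attracts monocytes, passed it at 4.29, 19.1 and 18.3 FPKM in SFZ and 0.14, 0.56 and 0.61 FPKM in DZ (3.16, SE 0.52). Cxcl12, a chemokine of stromal cells, differed by 3.38 (SE 0.85) without overlap. Vegfa, the main vessel growth factor of cartilage, was near even (-0.23, SE 0.27).

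**Figure D3:**
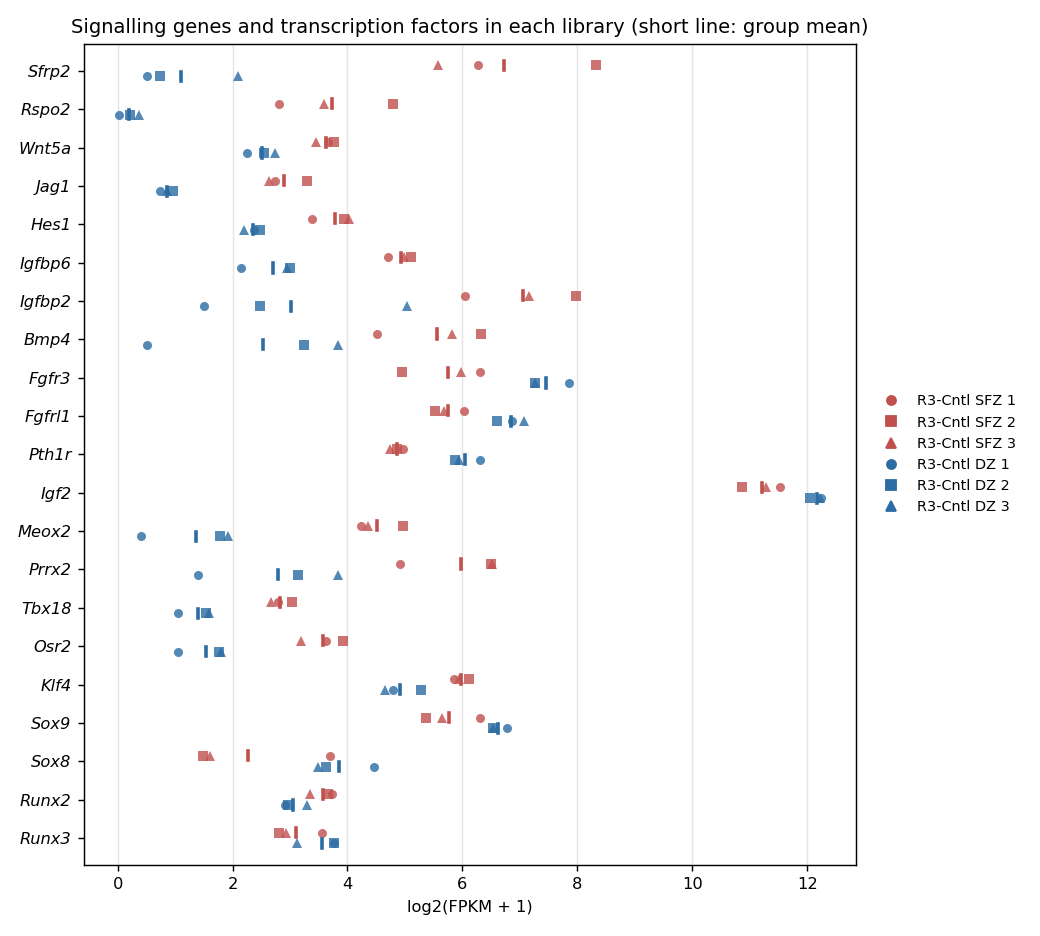
Level of 12 signalling genes (Sfrp2 to Igf2) and 9 transcription factor genes (Meox2 to Runx3) in each R3-Cntl library (x axis, log2(FPKM + 1)), with 1 symbol shape per library number, SFZ in red and DZ in blue, and a short line at each group mean of the log2 values. Hes1, Wnt5a and Pth1r show narrow groups that do not overlap, whereas the Runx3 groups overlap. The Jag1 groups do not overlap either, with DZ values near the floor of the scale.

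Among the lists of transcription factors, that of tendon and fibroblasts, which is the longest, held the most separated genes. Of 36 tested, 15 were separated, all with SFZ higher, and Meox2, Twist2, Tbx18 and Nfib passed the test. Meox2, a homeobox factor of limb mesenchyme, measured 17.8, 30.2 and 19.5 FPKM in SFZ and 0.32, 2.43 and 2.79 FPKM in DZ (3.15, SE 0.43). Prrx2, of the limb mesenchyme too, measured 29.1, 89.8 and 90.3 FPKM in SFZ and 1.63, 7.84 and 13.2 FPKM in DZ (3.19, SE 0.70). Scx and Mkx, factors of tendon development, were also higher in SFZ, by 1.16 (SE 0.33) and 1.25 (SE 0.29). Twist1 differed by 1.63 (SE 0.40), like Twist2 (1.63, SE 0.26), and Tbx18 by 1.44 (SE 0.19). Ets1 had the opposite sign (-0.73, SE 0.17), and the median of the list was 0.85.

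Among 11 tested factors tied to joints and to the cartilage surface, 9 had a higher mean in SFZ, against 72.0% of all genes, 4 were separated and 1 passed the test. Osr2, which with Osr1 takes part in joint formation, was the gene past it, at 11.3, 14.2 and 8.09 FPKM in SFZ and 1.07, 2.39 and 2.50 FPKM in DZ (2.04, SE 0.27). Creb5, a factor known for activating Prg4, measured 2.32, 2.63 and 1.63 FPKM in SFZ and 0.14, 0.60 and 0.58 FPKM in DZ (1.15, SE 0.21). Klf4 measured 56.7, 68.3 and 60.2 FPKM in SFZ and 26.9, 37.9 and 24.2 FPKM in DZ (1.05, SE 0.18). These genes and Osr1 (1.78, SE 0.58, and 1.10 without DZ library 1) were the 4 separated genes. Erg, a factor of articular chondrocytes, overlapped (0.38, SE 0.34).

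The Sox factors of chondrocytes were higher in DZ. Sox9 measured 78.3, 40.1 and 48.8 FPKM in SFZ and 109, 91.5 and 91.1 FPKM in DZ (-0.84, SE 0.25). Its partners Sox5 and Sox6 differed by -0.63 (SE 0.23) and -0.73 (SE 0.18). The groups did not overlap in any of the 3 genes. None of the 7 tested Sox genes passed the test with all libraries, 4 passed it without SFZ library 1, and none did without any 1 of the other 5.

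Runx3, the gene targeted in the libraries labelled R3-cKO, measured 10.7, 5.98 and 6.65 FPKM in SFZ and 12.7, 12.7 and 7.66 FPKM in DZ (-0.46, SE 0.26), with overlapping zones. Runx2, the factor of hypertrophy and bone, measured 12.3, 11.7 and 9.16 FPKM in SFZ and 6.49, 6.81 and 8.85 FPKM in DZ (0.52, SE 0.16) and did not overlap. Neither passed the test. Growth-plate factors had a median of -0.20 over 15 tested genes, -0.12 without DZ library 2 and -0.13 without SFZ library 3. Foxa2 and Foxa3, which promote hypertrophic gene expression, were separated towards DZ at -1.08 (SE 0.21) and -1.11 (SE 0.28). Limb patterning genes were nearly even, with a median of 0.11 over 14 tested genes that became -0.10 after quantile normalization and -0.04 with size factors. The largest was Tbx4, of the hind limb (0.99, SE 0.23).

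Of 20 tested surface markers of mesenchymal progenitors, 9 were separated with SFZ higher (4.2% of all genes were) and 2, Cd34 and Thy1, passed the test (1.09% of all genes did). The median was 1.18, and 0.69 without DZ library 1. Thy1 measured 20.8, 39.6 and 32.7 FPKM in SFZ and 0.41, 0.85 and 2.25 FPKM in DZ (3.93, SE 0.36). Ly6a, the gene of Sca-1, differed by 3.38 (SE 0.83). Nt5e, of the surface enzyme CD73, had the opposite sign, at 58.5, 23.9 and 33.5 FPKM in SFZ and 59.3, 68.6 and 64.0 FPKM in DZ (-0.81, SE 0.30, and -0.52 without SFZ library 2). The progenitor markers therefore did not all point one way.

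Genes of glycolysis and of the response to low oxygen were higher in DZ cells. Of 29 tested genes 26 had lower means in SFZ, 7 were separated with DZ higher and 1 with SFZ higher, the median was -0.69 (-0.43 without DZ library 1), and Higd1a and Car12 passed the test. Higd1a, a mitochondrial protein induced by hypoxia, measured 38.9, 26.95 and 31.5 FPKM in SFZ and 85.6, 82.5 and 60.2 FPKM in DZ (-1.20, SE 0.19). Bnip3, of mitochondrial turnover, measured 77.1, 29.3 and 45.6 FPKM in SFZ and 203, 168 and 127 FPKM in DZ (-1.77, SE 0.35). Hif1a, the oxygen-regulated factor itself, measured 122, 81.4 and 76.0 FPKM in SFZ and 216, 178 and 178 FPKM in DZ (-1.05, SE 0.21). The zones were apart in each of these genes. The glucose transporter Slc2a1 and the glycolytic enzymes Pgk1 and Pfkl differed by -1.15 (SE 0.37), -0.99 (SE 0.28) and -1.08 (SE 0.27). Epas1, of HIF-2 alpha, was the separated gene with SFZ higher (1.20, SE 0.20), and Adm differed by 1.64 (SE 0.66) with overlap.

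Promoters of this group are shown, that of Bnip3 for its paired hypoxia response letters and that of Car12, a carbonic anhydrase that passed the test, for its Runx letters. They are the 250 bases before the start site from RefSeq (table of build GRCm38.p6), placed on mm9 at chr7:146101190-146101439, minus strand and chr9:66561243-66561492, plus strand. Capitals mark ACGTG or its complement CACGT in Bnip3, which overlap as CACGTG, and ACCACA, the complement of TGTGGT, in Car12. Runx forms ending in C, such as gccaca in Bnip3 and tgtggc in Car12, were not searched and are not marked.
Bnip3: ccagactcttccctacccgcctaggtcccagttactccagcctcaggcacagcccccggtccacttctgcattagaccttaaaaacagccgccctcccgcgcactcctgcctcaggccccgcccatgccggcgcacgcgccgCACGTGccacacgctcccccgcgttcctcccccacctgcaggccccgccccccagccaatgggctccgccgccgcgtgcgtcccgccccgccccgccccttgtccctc
Car12: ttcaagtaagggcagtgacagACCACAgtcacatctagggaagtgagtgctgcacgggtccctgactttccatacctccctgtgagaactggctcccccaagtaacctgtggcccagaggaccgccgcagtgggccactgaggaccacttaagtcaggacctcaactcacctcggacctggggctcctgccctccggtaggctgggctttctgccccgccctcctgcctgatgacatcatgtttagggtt
The hypoxia response letters ACGTG, on either strand, were in 16.6% of all promoters of the table and in 17 of the 37 promoters (45.9%) of the 26 tested hypoxia and glycolysis genes that matched it. That list was drawn up from genes known for this response. Of promoters of genes higher in SFZ 13.8% held these letters, and of those higher in DZ 25%, which is 4 of 16.

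Genes of the cell cycle had higher means in SFZ in 36 of 37 tested cases, against 72.0% of all genes, with a median of 1.27 (0.84 without SFZ library 3), and none passed the test. Mki67, a marker of dividing cells, measured 13.8, 28.8 and 50.5 FPKM in SFZ and 5.44, 20.3 and 6.30 FPKM in DZ (1.501, SE 0.59). The list summed to 573, 1014 and 1726 FPKM in SFZ and 359, 797 and 261 FPKM in DZ, so SFZ library 1 lay below DZ library 2. No gene of the list was separated. Of 11 tested D cyclins and inhibitors of cyclin-dependent kinases, 2 were separated, both with SFZ higher, 4 had lower means in SFZ, down to -1.12, and the median was 0.26 (0.094 without DZ library 1). Ccnd1, of cyclin D1, measured 90.1, 113 and 168 FPKM in SFZ and 14.5, 49.6 and 49.5 FPKM in DZ (1.82, SE 0.49). Contractile and actin genes summed to 1060, 2501 and 2528 FPKM in SFZ and 493, 1390 and 899 FPKM in DZ, again with SFZ library 1 inside the DZ range. The part of growth and cell spreading in the zone differences was not tested.

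Markers of other cells were examined because the zones were isolated by digestion. Macrophage markers, 14 in all of which 8 were tested, summed to 213, 179 and 9.06 FPKM in SFZ and 12.5, 10.2 and 31.3 FPKM in DZ. They were thus high in SFZ libraries 1 and 2 only, with Lyz2 at 127, 102 and 3.56 FPKM. Skeletal muscle genes, 15 with 4 tested, summed to 11.5, 178 and 9.52 FPKM in SFZ and 16.7, 16.4 and 7.74 FPKM in DZ, high in SFZ library 2 alone. The tendon and ligament list, 11 genes with 10 tested, summed to 1598, 1595 and 1260 FPKM in SFZ and 970, 891 and 1758 FPKM in DZ, a sum set largely by Fmod, Dcn and Col12a1. Its narrower members Thbs4 and Tnmd were under 3 FPKM in each DZ library, and the part of adhering tendon or ligament cells in the SFZ values was not tested. Endothelial markers, 12 with 2 tested, ranged from 5.50 to 15.3 FPKM in sum in SFZ and from 4.56 to 8.63 FPKM in DZ, and the 10 erythroid markers from 0.38 to 0.81 FPKM and from 0.30 to 0.51 FPKM, with Hbb-b2 and Hba-a2 at 0 in each library. The adipocyte list, 8 genes with 4 tested, did not overlap between zones, at 51.9, 126 and 54.0 FPKM in SFZ and 28.7, 39.8 and 35.7 FPKM in DZ. The Schwann cell list, 7 genes with 4 tested, ran towards DZ, with a median difference of -0.60. It summed to 143, 26.3 and 50.6 FPKM in SFZ and 273, 150 and 124 FPKM in DZ. SFZ library 1 lay inside the DZ range, and the part of such cells in the DZ values was not tested. The osteoblast and osteocyte list, 10 genes with 6 tested, summed to 1975, 3922 and 2211 FPKM in SFZ and 113, 333 and 1172 FPKM in DZ, mostly from Col1a1. Without Col1a1 the sums overlapped, at 116, 217 and 99.6 FPKM in SFZ and 88.2, 91.3 and 211 FPKM in DZ, and 4 of the 6 tested means were higher in SFZ and 2 lower. In this list Mepe was at 0 and Dmp1, Phex and Sost were under 1 FPKM in each library, and the part of bone cells and adipocytes in the values of Col1a1, Bglap and the other SFZ genes was not tested.

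**Figure D4:**
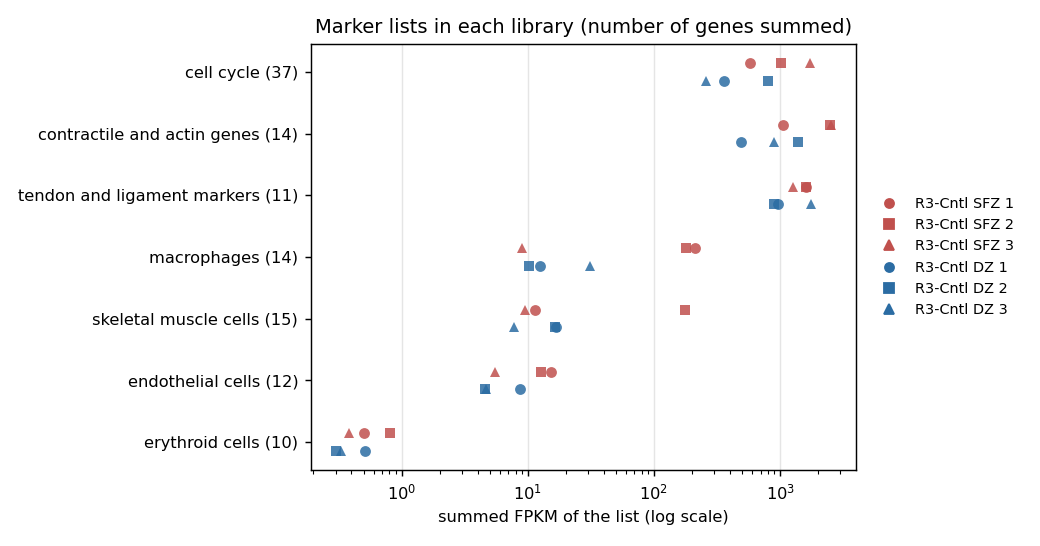
Summed FPKM of marker lists in each R3-Cntl library (x axis, log scale), with the number of genes summed in brackets, 1 symbol shape per library number, SFZ in red and DZ in blue. Macrophage genes are high in SFZ libraries 1 and 2, at 213 and 179 FPKM, and muscle genes in SFZ library 2, at 178 FPKM, while erythroid genes stay below 1 FPKM in all 6 libraries.

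The same zone difference was then read in the libraries labelled R3-cKO, which share no sample with R3-Cntl. Runx3, the targeted gene, measured 11.8, 9.07 and 3.42 FPKM in their SFZ and 15.95, 12.7 and 8.14 FPKM in their DZ, which overlaps the R3-Cntl values given above in both zones. This value of the whole gene does not show the deletion, so the genotype of these libraries rests on the labels. The paper measured Runx3 mRNA in SFZ and DZ cells of both genotypes separately from these libraries. Of the 123 genes higher in SFZ, 122 were tested there and 121 had the same sign, and 108 again had each SFZ library above each DZ library. All 17 genes higher in DZ had the same sign, and 14 were apart. Among the 11198 genes tested in both genotypes, 65.5% were higher in SFZ in R3-cKO and 16.8% were apart in that direction, and 34.5% were lower with 4.21% apart. The median log2 difference of the 123 genes was 1.45 in R3-Cntl and 1.15 in R3-cKO, and of the 17 genes -1.18 and -0.82. Across the 11198 genes, which are not independent replicates, the 2 sets of differences had r = 0.75.

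Individual markers differed in how far they carried over. Thbs4 measured 36.7, 45.1 and 108 FPKM in R3-cKO SFZ and 0.01, 1.04 and 0.00 FPKM in R3-cKO DZ. Cd34 measured 17.1, 24.7 and 13.9 FPKM and 0.81, 1.09 and 0.76 FPKM, and Plod2 80.4, 99.6 and 149 FPKM and 206, 191 and 290 FPKM. The groups were apart in these genes. Prg4 measured 6.95, 2.47 and 2.13 FPKM in R3-cKO SFZ and 5.72, 1.32 and 2.14 FPKM in R3-cKO DZ (0.27, SE 0.51), with overlapping zones. The difference of its zone effect between genotypes was -2.09 (SE 0.70, adjusted p = 0.999). Of the Notch genes, Jag1 was apart again, at 5.17, 6.74 and 2.96 FPKM in R3-cKO SFZ and 1.37, 1.17 and 0.40 FPKM in R3-cKO DZ. Hes1 overlapped, at 8.63, 14.2 and 2.12 FPKM and 8.27, 8.86 and 3.86 FPKM (0.014, SE 0.61). For Hes1 the difference between genotypes was -1.42 (SE 0.70) and did not pass the test. In the limma test of the libraries labelled R3-cKO alone, Cd34 and Cdh13 passed, both higher in SFZ (0.0176% of 11336 genes), and 0 genes passed towards DZ, with 1258 and 344 genes at an unadjusted p under 0.05. The interaction of zone and genotype passed in 0 of 11765 genes, with 99 at an unadjusted p under 0.05.

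Most list medians had the same sign in both genotypes, and the exceptions among the 44 lists with tested genes were cell cycle, limb patterning (0.11 and -0.09), skeletal muscle (0.75 and -0.34) and mural cells (0.14 and -0.32). In R3-Cntl the muscle and mural medians were -0.31 and -0.04 without SFZ library 2, and the limb patterning median was -0.02 without DZ library 1. The exceptions other than cell cycle thus rest on 1 library. Fibrous collagens had medians of 1.87 in R3-Cntl and 1.58 in R3-cKO, elastic fibre genes 1.56 and 1.15, cartilage fibril collagens -1.64 and -0.92, and hypoxia and glycolysis genes -0.69 and -0.56. Cell cycle genes had 1.27 and -0.33, and contractile and actin genes 1.18 (1.785 without SFZ library 1) and 0.02. The difference of these medians between genotypes was not tested as such, and no gene of either list passed the interaction test.

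**Figure D5:**
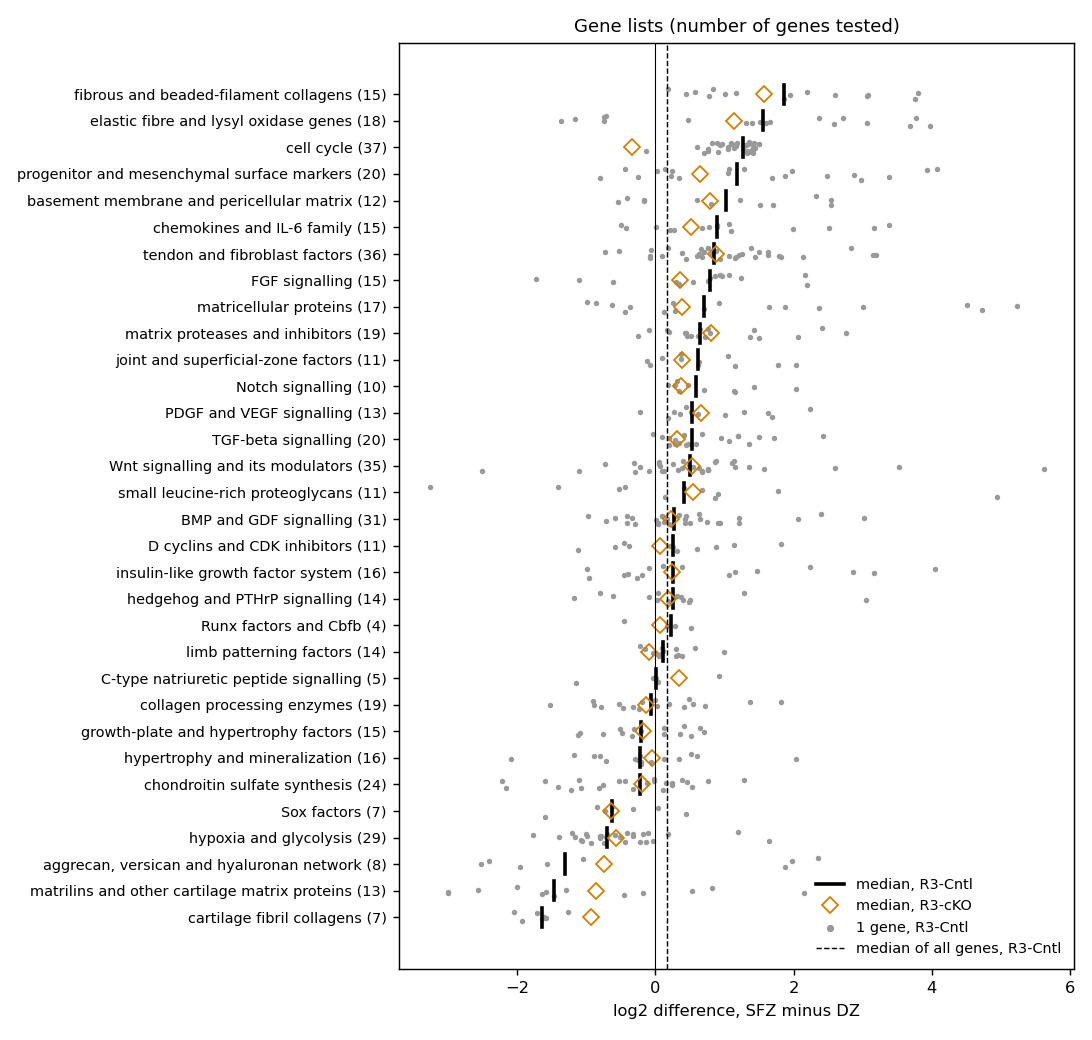
Difference between zones for the genes of each list (x axis, SFZ minus DZ on the log2(FPKM + 1) scale), with the number of genes tested in brackets. Grey points are single genes and black bars the list medians in R3-Cntl, open diamonds are the medians in R3-cKO, and the dashed line is the median of all genes in R3-Cntl, 0.17. Fibrous collagens (1.87) and cartilage fibril collagens (-1.64) stand at the ends.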

How the data were processed

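RNA-seq of SFZ and DZ cells was analysed in 6 R3-Cntl libraries, with 6 R3-cKO libraries for comparison. The authors sequenced 100-bp paired-end reads and mapped them to mm9, and their processing notes name Bowtie 0.12.2. The deposited values are FPKM scaled by TMM (trimmed mean of M values), a unit inferred from the values. The methods also name quantile normalization and log2 CPM, and the quantification tool is not given in the sources used here. Depth is unknown, so precision is read from the spread between the 3 libraries of a group. All columns were mapped (0 left over).

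Values were analysed as log2(FPKM + 1) in R 4.3.3 with limma 3.58.1 (moderated, mean-variance trend, Benjamini-Hochberg adjustment over all genes tested), with the fit tested on simulated data. Tables used Python 3.11.15. The zone difference was fitted to each genotype, and its interaction with genotype to all 12 libraries. Members and gene lists (45 lists, 723 genes) were chosen with earlier results of these data known. Genes are named by a rule: the 10 largest differences each way past the test, the 4 zone markers, the first 3 genes of each list and its largest differences. Not all of them are printed. Genes outside the rule were chosen after their values were seen: Adm, Axin2, Bgn, Cdh13, Col12a1, Col6a2, Col6a3, Ctgf, Ets1, Fbn2, Fgfr1, Fgfr4, Fmod, Frzb, Fst, Has2, Hba-a2, Hbb-b2, Igfbp4, Igfbp7, Lef1, Loxl1, Lyz2, Mepe, Nt5e, P4ha2, Pfkl, Pgk1, Phex, Prrx2, Ror2, Sfrp5, Sost and Wnt5a. Alternatives were filters, pseudocounts, scalings, a replicate block and leaving out each library. Promoters are from RefSeq, positions from the mm9 annotation.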

Additional observations from a re-analysis of the deposited data

How the results depend on the processing

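The number of genes past the test moved with nearly every choice. The direction of the 140 genes was kept wherever they were tested. Only quantile normalization and size factors could have changed it, because the zones do not overlap in these genes. Higher in SFZ and in DZ, the calls were 0 and 0 with no filter on low values, 7 and 1 when a gene had to average 10 FPKM or more, 80 and 8 with a pseudocount of 0.1, 26 and 3 with a pseudocount of 5, 4 and 0 after quantile normalization, 14 and 4 with size factors, and 661 and 137 with all 12 libraries in one model, against 123 and 17 as reported. Without a mean-variance trend they were 147 and 25. Leaving out 1 library in turn gave 0 (without SFZ library 2, DZ library 1 or DZ library 2) to 400 (without SFZ library 1) higher in SFZ and 0 to 212 higher in DZ. The replicate number as a block gave 681 and 150 calls in R3-Cntl, and 285 and 67 in R3-cKO against 2 and 0. Deviations of SFZ and DZ libraries with the same number correlated at 0.58, 0.125 and -0.156, and those of SFZ library 2 with DZ library 3 at 0.396 and of SFZ library 3 with DZ library 2 at 0.594. Not every library correlated best with its own number, so the numbers were not taken to pair the libraries, and which libraries share a mouse is not known. Of the 140 genes, 140 were called again with the block, 134 with all 12 libraries, 84 with a pseudocount of 0.1, 18 with size factors and 4 after quantile normalization. Of the genes named, Fgfr1 and Igfbp7, not past the test, changed sign: leaving out 1 library in turn gave log2 differences of -0.036 (without DZ library 1) to 0.83 (without DZ library 3) for Fgfr1, and of -0.55 (without DZ library 2) to 0.085 (without DZ library 3) for Igfbp7. Leaving out 1 library moved the difference of none of the 42 named genes past the test by over 1.5 times, but that of 25 of the 110 others, 20 of them without DZ library 1, and 26 of 41 list medians. Genes past the test were selected for a difference large against the spread between libraries, so their contrast with the others is not read as a result. The causes of these shifts were not tested. Depth is unknown and 3 libraries per zone limit the precision.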
